A study of Mus musculus with 192 samples.

Results

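The comparison of LPS, SeV or cGAMP with and without HMW rests on 6 of the 64 groups of the series, whose libraries were found by their labels, with 3 libraries in each, 18 in all. Bone marrow of female C57BL/6J mice aged 6 to 8 weeks was cultured with the growth factor GM-CSF to give dendritic cells, the antigen-presenting cells that start immune responses, and the cells were exposed for 6 hours. The groups received LPS, LPS with HMW, SeV, SeV with HMW, 3',3'-cGAMP, or 3',3'-cGAMP with HMW, and no group carried a modified allele. Untreated cells (Ctrl) and cells given HMW alone served for reference, as did PAM, zymosan (labelled as depleted) and CpGB with and without HMW, and the 15 pairs of those 6 ligands with and without HMW. The labels give neither doses nor the full names of HMW and SeV. In ligand panels HMW usually stands for high molecular weight poly(I:C), a synthetic double-stranded RNA, and SeV for Sendai virus, but the sources used here do not spell either name out.

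Double-stranded RNA is sensed by TLR3 in endosomes and by the helicases MDA5 (gene Ifih1) and RIG-I (gene Ddx58) in the cytosol. Lipopolysaccharide is sensed by TLR4 at the cell surface, the RNA of Sendai virus mainly by RIG-I, and cGAMP by the adaptor STING. These routes converge on the factors IRF3 and NF-kB. IRF3 starts the production of type I interferon and, through it, a large set of interferon-induced genes, and NF-kB drives inflammatory cytokines together with its own inhibitors.

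The 18 libraries held 98864 to 231606 counts of unique molecular identifiers (UMIs, which tag single cDNA molecules), with a median of 164258. Mean totals were higher with HMW on each background. They were 195000 against 182666 with LPS, 162341 against 141420 with SeV and 182513 against 144608 with cGAMP. The SDs of these totals ran from 32426 to 53751 (n = 3). Ribosomal protein genes took 3.30% to 3.93% of the counts, and each library correlated with its group mates at r of 0.862 to 0.925 across genes, which are not independent replicates. The labels do not say whether the 3 libraries of a group came from separate cultures or animals. The p-values measure the spread between libraries within groups, pooled over all 64 groups, which may be technical. A list of 8 dendritic cell markers summed to between 2792 and 4724 CPM (counts scaled to a common library size with TMM factors) in the 18 libraries, and 7 of a list of 8 macrophage markers to between 2650 and 3374 CPM. Zbtb46, a defining marker of conventional dendritic cells, had no count in 4 of the 6 groups, and Flt3 had none in 3. Markers of B cells, T and NK cells, mast cells and erythroid cells were at or near 0.

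Few genes were called when HMW was added to cells that received LPS, SeV or cGAMP. A gene was called at a Benjamini-Hochberg adjusted p under 0.05 in edgeR's quasi-likelihood test, over 4720 genes. With LPS, 0 genes were called (0% of the genes tested) and 218 had an unadjusted p under 0.05. With cGAMP, 0 genes were called (0%) and 208 had an unadjusted p under 0.05. DESeq2 also called 0 genes on both backgrounds, with 162 and 151 genes at an unadjusted p under 0.05. With SeV, 1 gene was called (0.0212%), Clec4e, which was higher with HMW.

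The mean of the 3 HMW effects, which share no library, was more precise. By this common effect 5 genes rose (0.106% of the genes tested) and 0 fell, whereas a fit to the compared libraries alone called 15 higher and 2 lower. The 5 were Clec4e, Cd69, Tnfaip3, Irg1 and Plek, and their mean rises lay between 1.24-fold and 1.40-fold. No other gene met the threshold. The next by p was Tpm4, a tropomyosin of the actin cytoskeleton, with an edgeR adjusted p of 0.122.

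Clec4e encodes Mincle, a C-type lectin receptor for microbial glycolipids and for a protein released by dying cells. Its level was 2546, 2427 and 2591 CPM in the LPS libraries and 3250, 3027 and 2882 CPM with LPS and HMW. It was 602, 667 and 549 CPM with SeV and 1082, 969 and 969 CPM with SeV and HMW. It was 1210, 1017 and 976 CPM with cGAMP and 1710, 1306 and 1306 CPM with cGAMP and HMW. On each of the 3 backgrounds every library with HMW lay above every library without it. The rise was 1.67-fold with SeV (log2 fold change 0.74, SE 0.14, edgeR adjusted p = 0.000644), and its log2 fold change was 0.27 with LPS and 0.44 with cGAMP, neither called alone. The common effect of Clec4e was a log2 fold change of 0.48 (SE 0.07, edgeR adjusted p = 3.06e-07). The effects with LPS, SeV and cGAMP were not shown to differ from each other (edgeR adjusted p = 1.00, unadjusted p = 0.0287). The call of Clec4e with SeV was lost in 4 of 16 alternatives: without replicate 3 of SeV (log2 fold change 0.65, edgeR adjusted p = 0.221), with thinned counts (0.662) and without replicate number 1 or 3 in all groups (0.0797 and 0.984).

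Beside the SeV comparison, 7 of a list of 8 neutrophil and granulocyte precursor markers summed to 658 to 783 CPM in the SeV libraries and to 439 to 603 CPM with SeV and HMW, with no overlap. S100a9, a calcium-binding protein abundant in neutrophils, stood at 258, 429 and 310 CPM with SeV and at 186, 235 and 143 CPM with HMW added. Its log2 fold change was -0.82 with SeV (edgeR adjusted p = 0.158) and it was not called. With SeV, the 3 libraries with HMW all lay below the 3 without for 5.49% of all genes. The list overlapped between groups with LPS (817 to 1023 CPM without HMW, 789 to 1006 CPM with it) and with cGAMP (509 to 762 CPM and 527 to 649 CPM). Of its 5 tested members, 0 had a log2 fold change above 0 with SeV, 0 with cGAMP and 3 with LPS. Of all genes, 52.8%, 52.6% and 50.8% did. In the common effect 0 of the 5 were above 0, against 53.4% of all genes, with a median of -0.22. There S100a9 was at -0.40 (edgeR adjusted p = 0.177, unadjusted p = 0.000714). In bulk RNA, fewer cells of a type and less RNA per cell cannot be told apart, and the part of this shift in the SeV result and in the common effect was not tested.

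Tnfaip3 encodes A20, a ubiquitin-editing enzyme that shuts off NF-kB signalling. Its level was 566, 693 and 609 CPM with LPS and 818, 803 and 878 CPM once HMW was added. It was 306, 399 and 347 CPM with SeV and 576, 525 and 482 CPM with SeV and HMW. It was 495, 567 and 614 CPM with cGAMP and 709, 685 and 650 CPM with cGAMP and HMW. The groups with and without HMW did not overlap on any of the 3 backgrounds. The common effect was a log2 fold change of 0.42 (SE 0.09, edgeR adjusted p = 0.00532). The call of Tnfaip3 was lost in 4 of 28 alternatives: with counts thinned to equal totals (edgeR adjusted p = 0.627) and without replicate number 1, 2 or 3 in all groups (0.474, 0.0858 and 0.278). In Ctrl and HMW-alone libraries Tnfaip3 stood at 230 ± 28.3 and 240 ± 30.0 CPM (SD, n = 3), with a log2 fold change of 0.06 that was not called.

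Cd69 encodes an early activation antigen of leukocytes, a lectin-like surface protein. Its level was 476, 405 and 492 CPM with LPS and 589, 685 and 608 CPM with LPS and HMW. It was 593, 621 and 530 CPM with SeV and 984, 943 and 869 CPM with SeV and HMW. It was 477, 771 and 743 CPM with cGAMP and 852, 832 and 699 CPM with cGAMP and HMW. The groups did not overlap with LPS or SeV and overlapped with cGAMP. The common effect was a log2 fold change of 0.46 (SE 0.10, edgeR adjusted p = 0.0126). Of the 5 called genes Cd69 lost its call in the most alternatives, 9 of 28: DESeq2 gave it an adjusted p of 0.0567, and the edgeR call was lost without replicate 2 of LPS (adjusted p = 0.0800), replicate 2 of LPS with HMW (0.0683), replicate 3 of SeV (0.0769) or replicate 1 of cGAMP (0.118), with thinned counts (0.627) and without replicate number 1, 2 or 3 in all groups (0.202, 0.332 and 0.253).

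Irg1 encodes the mitochondrial enzyme that makes itaconate, a metabolite that restrains inflammation and bacterial growth. Its level was 3588, 4317 and 3776 CPM with LPS and 4947, 4658 and 4346 CPM with LPS and HMW. It was 2599, 2184 and 2125 CPM with SeV and 3255, 3121 and 3221 CPM with SeV and HMW. It was 4246, 3377 and 3222 CPM with cGAMP and 4396, 4155 and 3907 CPM with cGAMP and HMW. The groups overlapped with cGAMP and did not with LPS or SeV. The common effect of Irg1 was a log2 fold change of 0.31 (SE 0.06, edgeR adjusted p = 0.00207). Its call was lost in 3 of 28 alternatives: with thinned counts (edgeR adjusted p = 0.489) and without replicate number 2 or 3 in all groups (0.107 and 0.583).

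Plek encodes pleckstrin, a substrate of protein kinase C in leukocytes and platelets. Its level was 2151, 2112 and 1982 CPM with LPS and 2397, 2280 and 2228 CPM with LPS and HMW. It was 946, 889 and 825 CPM with SeV and 1215, 1163 and 1218 CPM with SeV and HMW. It was 880, 824 and 718 CPM with cGAMP and 1138, 1017 and 893 CPM with cGAMP and HMW. The groups did not overlap on any background. The common effect of Plek was a log2 fold change of 0.31 (SE 0.06, edgeR adjusted p = 0.00207). The call was lost in 5 of 28 alternatives: without a filter on low counts (edgeR adjusted p = 0.211), with thinned counts (0.627) and without replicate number 1, 2 or 3 in all groups (0.156, 0.152 and 0.583).

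**Figure D1:**
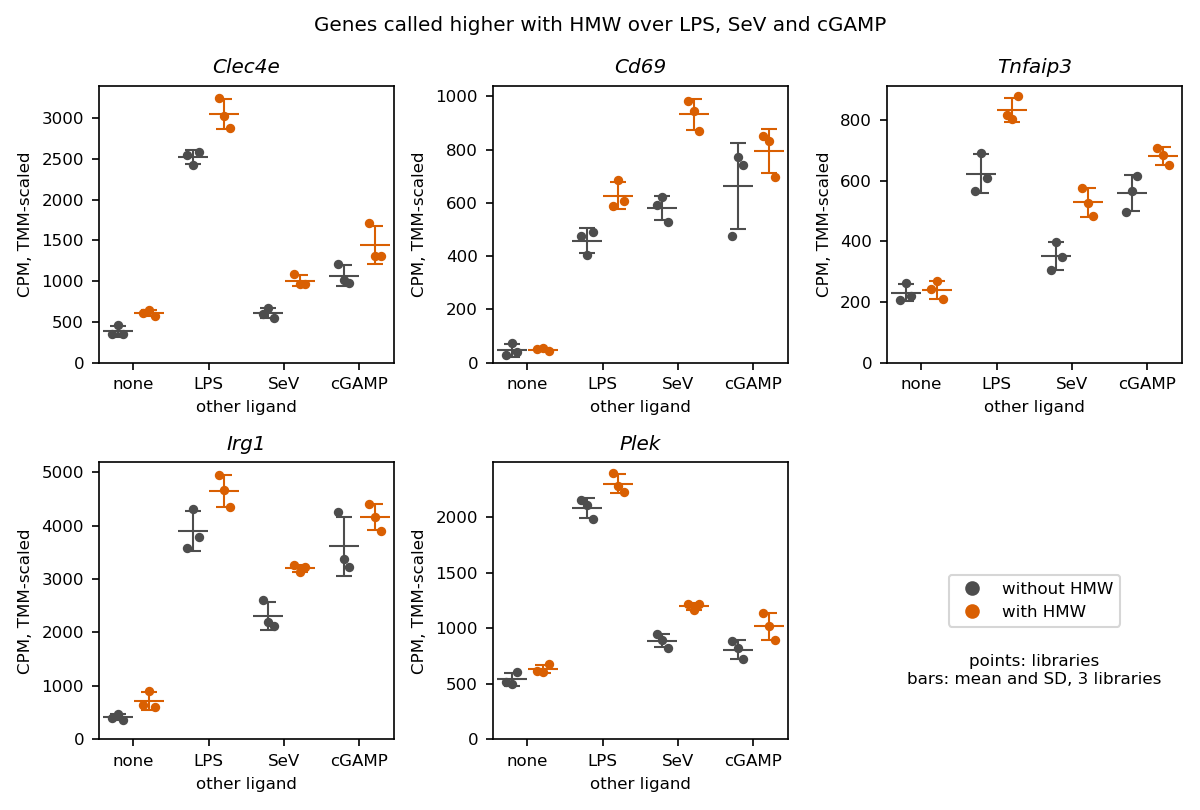
Level in CPM (TMM-scaled, linear axis from 0) of the 5 genes called higher by the common effect, by the other ligand given (none, LPS, SeV, cGAMP). Points are libraries without HMW (grey) and with HMW (orange), and bars are the mean and SD of 3 libraries. With SeV, the 3 libraries with HMW lie above the 3 without for each of the 5 genes.

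Counted over the 5 genes, the libraries with HMW all lay above those without for 5 genes with LPS, 5 with SeV and 3 with cGAMP. Over all genes tested this held for 5.78%, 7.35% and 6.61%. The 5 genes were called on these same values, so the counts describe them and give no further support.

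The promoters of the called genes are shown beside those of Ifit1 and Isg15, interferon-induced genes that were not called in the common effect. Whether the called genes share regulation was not tested. RefSeq promoters of build GRCm38.p6 matched 4 of the 5 called genes, Irg1 through its newer symbol Acod1. Each sequence is the 250 bases before the start of transcription, 5′ to 3′ on the gene's strand. Capitals mark matches to GGAAANNCC, a form of the NF-kB site, or to GAAANNGAA, a core of the interferon-stimulated response element, on either strand; where both or neighbouring matches overlap, the capitals run together.
Clec4e, chr6:123289872-123290121, minus strand: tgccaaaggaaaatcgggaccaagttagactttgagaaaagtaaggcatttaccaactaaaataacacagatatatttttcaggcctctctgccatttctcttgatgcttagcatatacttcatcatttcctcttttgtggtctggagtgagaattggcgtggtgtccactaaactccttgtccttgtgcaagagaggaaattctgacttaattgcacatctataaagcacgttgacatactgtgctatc
Tnfaip3, chr10:19015411-19015660, minus strand: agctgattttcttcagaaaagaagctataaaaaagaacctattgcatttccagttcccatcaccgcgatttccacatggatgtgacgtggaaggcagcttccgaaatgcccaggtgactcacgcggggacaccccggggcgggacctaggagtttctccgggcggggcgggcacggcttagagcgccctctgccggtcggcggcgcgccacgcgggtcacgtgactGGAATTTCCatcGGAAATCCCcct
Irg1 (Acod1), chr14:103046762-103047011, plus strand: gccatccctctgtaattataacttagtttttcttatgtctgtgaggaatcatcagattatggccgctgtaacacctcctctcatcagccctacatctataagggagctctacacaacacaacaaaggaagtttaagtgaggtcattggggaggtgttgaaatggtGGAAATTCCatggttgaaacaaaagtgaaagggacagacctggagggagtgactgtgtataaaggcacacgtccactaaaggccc
Plek, chr11:17008719-17008968, minus strand: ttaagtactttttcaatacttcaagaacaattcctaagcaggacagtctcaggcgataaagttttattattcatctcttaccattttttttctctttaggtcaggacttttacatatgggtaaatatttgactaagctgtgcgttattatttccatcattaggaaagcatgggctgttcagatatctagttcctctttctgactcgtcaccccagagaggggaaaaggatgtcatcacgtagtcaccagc
Ifit1, chr19:34640639-34640888, plus strand: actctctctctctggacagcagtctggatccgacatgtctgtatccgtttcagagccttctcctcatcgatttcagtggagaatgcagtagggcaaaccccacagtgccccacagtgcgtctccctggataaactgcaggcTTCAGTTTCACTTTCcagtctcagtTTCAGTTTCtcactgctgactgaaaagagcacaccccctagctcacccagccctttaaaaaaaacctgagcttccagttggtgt
Isg15, chr4:156200819-156201068, minus strand: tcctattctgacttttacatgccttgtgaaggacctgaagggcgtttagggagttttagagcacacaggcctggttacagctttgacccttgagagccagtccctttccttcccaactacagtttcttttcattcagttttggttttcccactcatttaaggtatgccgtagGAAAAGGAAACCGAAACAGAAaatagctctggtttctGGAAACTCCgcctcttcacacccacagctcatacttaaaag

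The NF-kB form was found 2 times in the Tnfaip3 promoter, 1 time in that of Irg1 and not in those of Clec4e and Plek. Tnfaip3 has a second promoter in the table, in which neither form was found. The interferon form was in none of the called genes' promoters, and 3 times in that of Ifit1 and 3 times in that of Isg15, overlapping matches included; that of Isg15 also held the NF-kB form. Of 4 further interferon-induced genes named below with promoters in the table, it was in neither Oasl2 nor Ifi47, and 1 time in 1 of the 2 promoters each of Ifi203 and Trim30a. Both forms, and Ifit1 and Isg15 as the promoters to print, were chosen after the data were seen. Over all 32851 promoters of this length, 4.93% held the NF-kB form and 7.13% the interferon form. A match describes letters in this window, and no match says only that these letters are not in it.

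The same measure was then read in libraries that the 3 comparisons do not use. HMW was added to 15 pairs of the other ligands, and 12 of these pairs hold LPS, SeV or cGAMP. In the mean of the 12, a set of pairs chosen after the data were seen, 71 genes were called (1.5%), against 4.96% over all 15 pairs, 44 higher and 27 lower. Clec4e, Irg1, Plek and Tnfaip3 were called higher there, with log2 fold changes of 0.22, 0.15, 0.15 and 0.18 (edgeR adjusted p of 9.76e-08, 0.000639, 0.000188 and 0.00115). Cd69 was not called (0.08, adjusted p = 0.547). These rises were smaller as measured than the common effects of the same genes on LPS, SeV and cGAMP, and the difference between them was not tested.

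The interferon-response genes were read next. Over 15 interferon-response genes (Ifit1, Isg15, Mx1, Cxcl10 and others), 0 were called in the common effect, against 0.106% of all genes, a share that leaves 0 of 15 uninformative about the list, and 12 had a log2 fold change above 0, against 53.4% of all genes. Their median log2 fold change was 0.07, beside 0.02 over all genes tested, and it was 0.04 with LPS, 0.12 with SeV and 0.05 with cGAMP. With HMW alone their median was 1.04 and 5 of the 15 were called higher (Ifit1, Ifit3, Mx1, Irf7 and Cmpk2), where 1.19% of all genes were. The other 10, Isg15 and Cxcl10 among them, were not called there. A list of 11 interferon-signalling genes had a median common effect of 0.03 over its 10 tested members, of which 0 were called, against 0.106% of all genes.

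Rtp4, an interferon-induced chaperone of the cell surface transport of receptors, is not in the 15-gene list and is given as the gene with the smallest p in the test of the difference from HMW alone. For the list itself that difference had a median of -0.94, and 4 of the 15 were called lower (Ifit1, Ifit3, Mx1 and Irf7), against 0.826% of all genes. It stood at 97.0, 49.9 and 38.4 CPM in Ctrl and at 308, 408 and 246 CPM with HMW alone. It was 700, 781 and 774 CPM with LPS and 797, 752 and 778 CPM with LPS and HMW. It was 831, 751 and 628 CPM with SeV and 763, 699 and 736 CPM with SeV and HMW, and 779, 836 and 712 CPM with cGAMP against 774, 668 and 778 CPM with cGAMP and HMW. HMW alone put every library above Ctrl, while on each of the 3 backgrounds the libraries with and without HMW overlapped, all of them above those of HMW alone. The common effect of Rtp4 was a log2 fold change of -0.01 (95% interval -0.17 to 0.15), and with HMW alone it was 2.45 (SE 0.31, edgeR adjusted p = 4.36e-10). The difference was -2.46 (SE 0.32, edgeR adjusted p = 3.15e-09).

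The test of that difference over all genes called 40 genes (0.847%). The HMW effect was lower on the 3 backgrounds than alone for 39 of them (0.826%) and higher for 1, Uqcrh, a subunit of respiratory complex III, whose difference was 1.39. No gene was called higher without replicate 2 of HMW alone, replicate 1 or 2 of Ctrl or replicate number 3 in all groups, or with thinned counts, so this single call was lost there. The 6 with the smallest p were Rtp4, Ifi203 and Ifi204 (members of the interferon-induced p200 family), Parp14 (an ADP-ribosyltransferase), Oasl2 (an oligoadenylate synthetase relative) and Mx1 (an antiviral GTPase). For Ifi203 the difference was -2.65, for Oasl2 -2.04, for Parp14 -1.68, for Ifi204 -1.43 and for Mx1 -1.30, with edgeR adjusted p between 1.29e-08 and 1.11e-06. The Ctrl libraries were shallower than the 18, at 73431 ± 14389 counts (SD, n = 3), and limit this comparison. The number called fell to 19 without replicate 2 of HMW alone and rose to 66 without replicate 3 of HMW alone.

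The common effect was also set against that on other single ligands, which keeps its 18 libraries but uses neither Ctrl nor HMW alone. In the mean of HMW added to PAM, Zymosan and CpGB, 171 genes were called higher and 21 lower (4.07% in all, 3.62% higher), and 14 of the 15 interferon-response genes were among the higher. The common effect on LPS, SeV and cGAMP was lower than the mean effect on those 3 ligands for 73 genes (1.55%). It was higher for 1, Wdr91, an endosomal protein (1.57% in all). That single higher call was lost without a filter on low counts, with thinned counts, without replicate number 3 and by DESeq2, each of which called 0 genes higher. This test was added after the data were seen. The 6 genes with the smallest p were Ifit1, Ifi47 (an interferon-induced GTPase), Ifi204, Trim30a (an interferon-induced ubiquitin ligase relative), Mx1 and Isg15 (a ubiquitin-like modifier), with differences of -1.11, -1.03, -0.90, -0.87, -0.81 and -0.99 and edgeR adjusted p between 9.02e-13 and 6.00e-09.

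Ifit1, whose product binds viral RNA, stood at 295, 382 and 356 CPM with PAM and at 1425, 1579 and 1128 CPM with PAM and HMW. It was 350, 570 and 210 CPM with Zymosan and 795, 809 and 1303 CPM with Zymosan and HMW. With LPS it was 3528, 3935 and 3991 CPM and with LPS and HMW 3845, 4826 and 3852 CPM. HMW separated the groups with PAM and with Zymosan, and not with LPS. With SeV Ifit1 was 4119, 3625 and 3536 CPM against 3902, 3804 and 4036 CPM with HMW, and with cGAMP 5071, 5440 and 5825 CPM against 5098, 5189 and 5511 CPM, and the groups overlapped on both. Its common effect on LPS, SeV and cGAMP was 1.03-fold (95% interval 0.93 to 1.15), while it was 3.94-fold with PAM and 2.70-fold with Zymosan.

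CpGB did not go with PAM and Zymosan. HMW added to CpGB called 0 genes (0%) and gave the interferon-response list a median of -0.14, against 1.43 with PAM and 1.43 with Zymosan. Ifit1 stood at 1174, 2027 and 1443 CPM with CpGB and at 1306, 1972 and 1550 CPM with CpGB and HMW. In these libraries the separation was seen with PAM and with Zymosan.

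**Figure D2:**
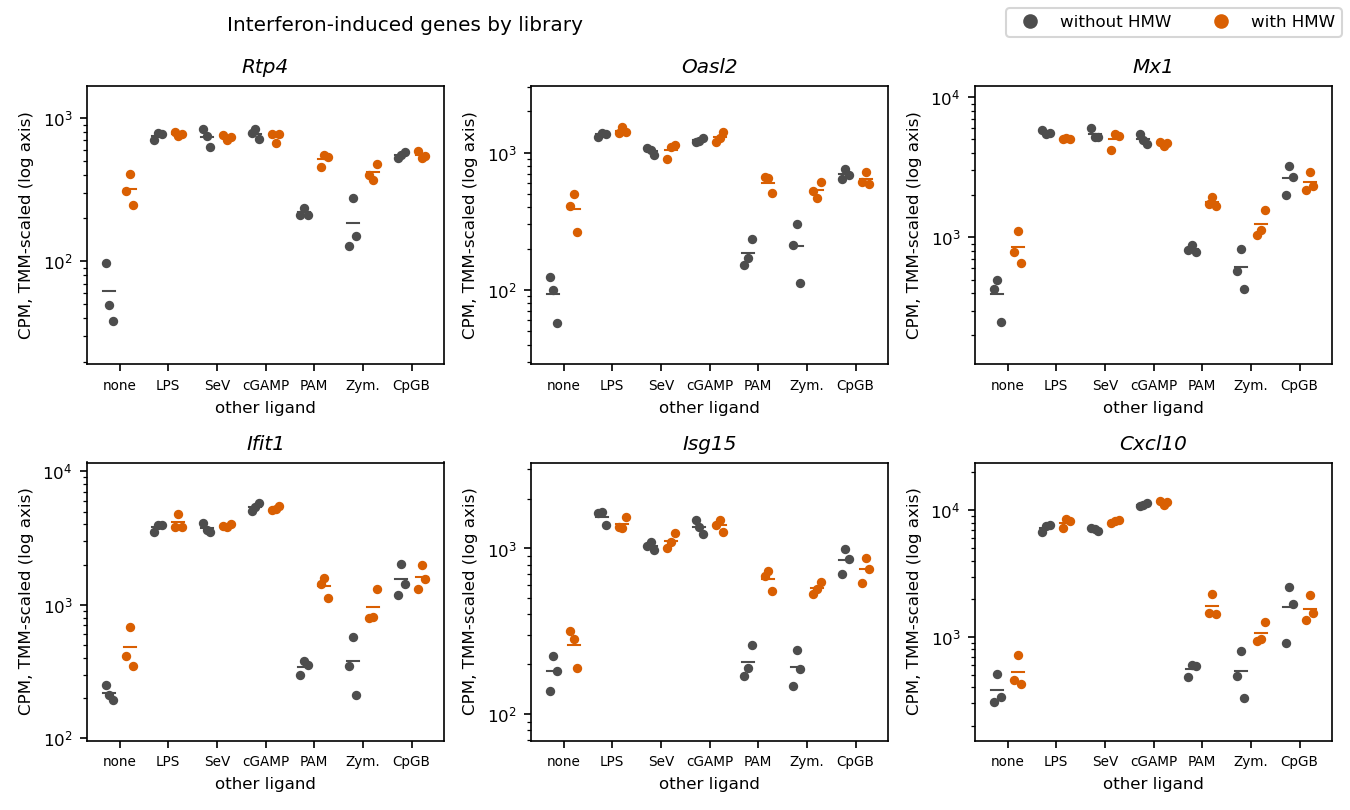
Level in CPM (TMM-scaled, log axis) of 6 interferon-induced genes by the other ligand given. Points are libraries without HMW (grey) and with HMW (orange), and short lines are means of 3 libraries. Rtp4, Oasl2 and Mx1 rise with HMW alone, with PAM and with Zymosan, and show no separation by HMW with SeV, cGAMP or CpGB. With LPS, where 0 genes were called, the libraries of Rtp4 and of Ifit1 with and without HMW overlap.

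The 56 genes that HMW alone raised against Ctrl were chosen by that contrast, so their median of 1.54 there is a description. On LPS, SeV and cGAMP their median log2 fold changes were 0.02, 0.15 and 0.08. In the common effect 2 of the 56 were called higher, Clec4e and Irg1, against 0.106% of all genes. Irg1 stood at 413 ± 55.5 CPM in Ctrl and 711 ± 166 CPM with HMW alone (SD, n = 3), a log2 fold change of 0.81 (edgeR adjusted p = 0.000507). For Clec4e the values were 384 ± 66.7 and 611 ± 37.1 CPM and 0.68 (adjusted p = 0.00927). In the comparison with PAM, Zymosan and CpGB, which uses neither Ctrl nor HMW alone, 37 of the 56 were called lower, against 1.55% of all genes.

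The inflammatory list gave 1 call, and most of its members lay above 0. Of 13 tested genes of a list of 15, 1 was called in the common effect, Tnfaip3, against 0.106% of all genes, and 12 had a log2 fold change above 0, against 53.4% of all genes. Their median was 0.22 beside 0.02 over all genes, and it was 0.24 with LPS, 0.10 with SeV and 0.16 with cGAMP. With HMW alone the median was -0.11 and 0 were called, against 1.21% of all genes. Il1b, the inflammasome-processed cytokine, had a common effect of 0.21 (95% interval 0.02 to 0.39), and Nfkbia, which encodes the NF-kB inhibitor IkB-alpha, one of 0.19 (0.05 to 0.33). Neither was called, with edgeR adjusted p of 0.649 and 0.513.

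Tnf, Il6, Il12b, Il10 and Cxcl10, named by rule, were not called with LPS, SeV or cGAMP or in the common effect. Tnf stood at 4437, 4373 and 4506 CPM with LPS and at 4504, 4346 and 4702 CPM with LPS and HMW. With SeV Tnf was 1787, 1824 and 1768 CPM without HMW and 1995, 2433 and 2410 CPM with it, groups that did not overlap (log2 fold change 0.35, edgeR adjusted p = 0.741). The common effect was 0.14 for Tnf (95% interval -0.04 to 0.32), 0.24 for Il6 (-0.02 to 0.50) and 0.13 for Cxcl10 (-0.06 to 0.31). These intervals leave out a common rise of 1.5-fold or more. Over 28 alternatives the common effect of Il6 ranged from -0.26 to 0.31 and kept its sign in 27. Il12b, a subunit of interleukin 12, had 32 counts with LPS and 48 with LPS and HMW, 1 and 8 counts with SeV, and 8 and 6 with cGAMP, summed over 3 libraries. Il10 had at most 6 counts in any of the 6 groups. Changes in either were not detectable at this depth.

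**Figure D3:**
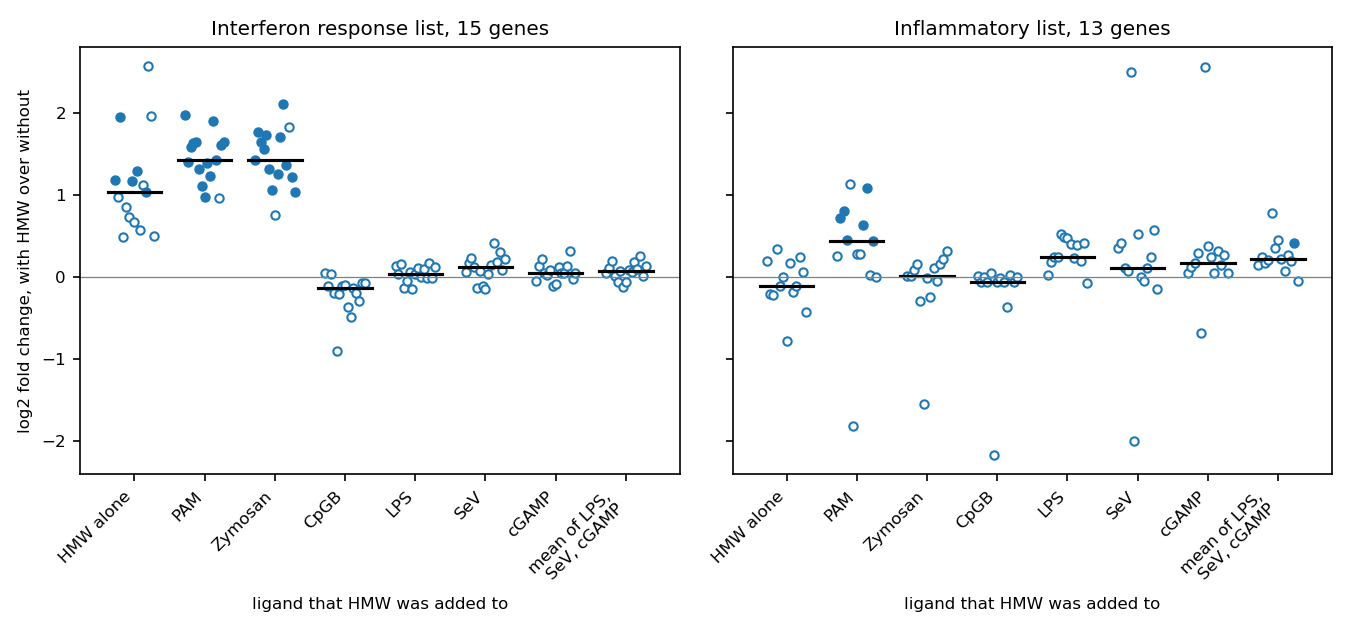
Log2 fold change (with HMW over without, y axis) of each tested gene of the interferon-response list (left, 15 genes) and the inflammatory list (right, 13 genes) by the ligand HMW was added to (x axis). Filled points passed the edgeR adjusted p, open points did not, and black lines are medians. The interferon medians lie at 1.04 to 1.43 for HMW alone, PAM and Zymosan and at -0.14 to 0.12 for CpGB, LPS, SeV and cGAMP, and the inflammatory points beyond 1.5 in size are Il10 and Il12b, which had few counts.

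Over 17 chemokines the median common effect was 0.14, with 0 called against 0.106% of all genes, 13 above 0 against 53.4% of all genes, and 4 at an unadjusted p under 0.05 (Ccl5, Ccl22, Cxcl9 and Cxcl16), as had 6.95% of all genes. Ccl5, an interferon- and NF-kB-driven attractant of T cells, stood at 5963, 5105 and 4915 CPM with SeV and at 6837, 6767 and 7135 CPM with SeV and HMW, without overlap. Its common effect was 0.19 (95% interval 0.03 to 0.35, edgeR adjusted p = 0.603). Fitted on the compared libraries alone, Ccl5 was called with SeV (log2 fold change 0.34, edgeR adjusted p = 0.00264) and in the common effect (0.17, adjusted p = 0.00648). With LPS, Ccl5 was 27252, 25211 and 28623 CPM without HMW and 28096, 27947 and 28090 CPM with it, and the groups overlapped.

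For the sensors and adaptors of these ligands 0 genes were called, against 0.106% of all genes, so the counts say nothing particular to them. Over the 18 tested genes of the double-stranded RNA sensing list the median common effect was 0.02, with 11 above 0, against 53.4% of all genes. Ifih1, which encodes MDA5, had a common effect of 0.17 (95% interval 0.00 to 0.33, edgeR adjusted p = 0.710), and Ddx58, which encodes RIG-I, one of 0.04 (-0.14 to 0.22). Tlr3 was lowly expressed, with 22 to 48 counts per group, and had a common effect of -0.24 (-0.68 to 0.19). Over the 8 tested receptors and adaptors of LPS, SeV and cGAMP the median was 0.01. Ifnb1, the gene of interferon-beta, had 8 counts with LPS and 9 with LPS and HMW. It stood at 248, 261 and 244 CPM with SeV and at 266, 245 and 270 CPM with SeV and HMW, groups that overlapped (log2 fold change 0.05, 95% interval -0.46 to 0.56).

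Antigen presentation, maturation and metabolic genes are described by their medians, since 0 were called where 0.106% of all genes were. The median common effect was 0.13 over 11 maturation and costimulation genes, 0.11 over 14 genes of MHC class I presentation, -0.03 over 7 of MHC class II, -0.08 over 9 of cholesterol synthesis, 0.01 over 11 of oxidative phosphorylation and -0.01 over 13 of lysosome and endocytosis. Cd40, a costimulatory receptor, had a common effect of 0.13 (95% interval -0.07 to 0.32) and Ccr7, which guides dendritic cells to lymph nodes, one of 0.04 (-0.17 to 0.25). In neither gene did the interval reach a change of 1.5-fold.

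The precision of these values sets what could be seen. The 95% interval reached to either side of the estimate by a median of 0.79 (log2) with LPS, 0.85 with SeV and 0.83 with cGAMP, and of 0.49 for the common effect. Among the 1499 genes averaging 100 CPM or more it was 0.44, 0.47, 0.46 and 0.27, and the common interval lay within a 2-fold change in either direction for 100% of them. Many single-background changes of that size in weak genes were not detectable at this depth.

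The effects with LPS, SeV and cGAMP were also set against each other. The joint test called 0 genes (0%), with 209 at an unadjusted p under 0.05 and 0 by DESeq2 (147 at an unadjusted p under 0.05). Across the 306 genes averaging 500 CPM or more, which are not independent replicates, Pearson's r between the HMW effects was 0.19 for LPS and SeV, 0.18 for LPS and cGAMP and 0.49 for SeV and cGAMP, in libraries that are not shared. Over all genes tested r was 0.05 for SeV and cGAMP, 0.02 for LPS and cGAMP and -9.9e-05 for LPS and SeV.

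HMW was added to 6 single ligands and 15 pairs, and the number of called genes differed between them. It was 362 with PAM and Zymosan together, 145 with PAM, 129 with Zymosan and 57 with HMW alone. It was at most 32 on the other backgrounds, the highest being SeV with CpGB, and 0 on 12 of them, LPS and cGAMP included. The median of the interferon-response list was 2.62 with PAM and Zymosan together and lay between -0.27 and 0.40 on every pair that held LPS, SeV, cGAMP or CpGB. Over the 12 pairs that held LPS, SeV or cGAMP the mean effect had a median of -0.01 for this list with 0 called, and of 0.11 for the inflammatory list with 1 called, against 1.5% of all genes.

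**Figure D4:**
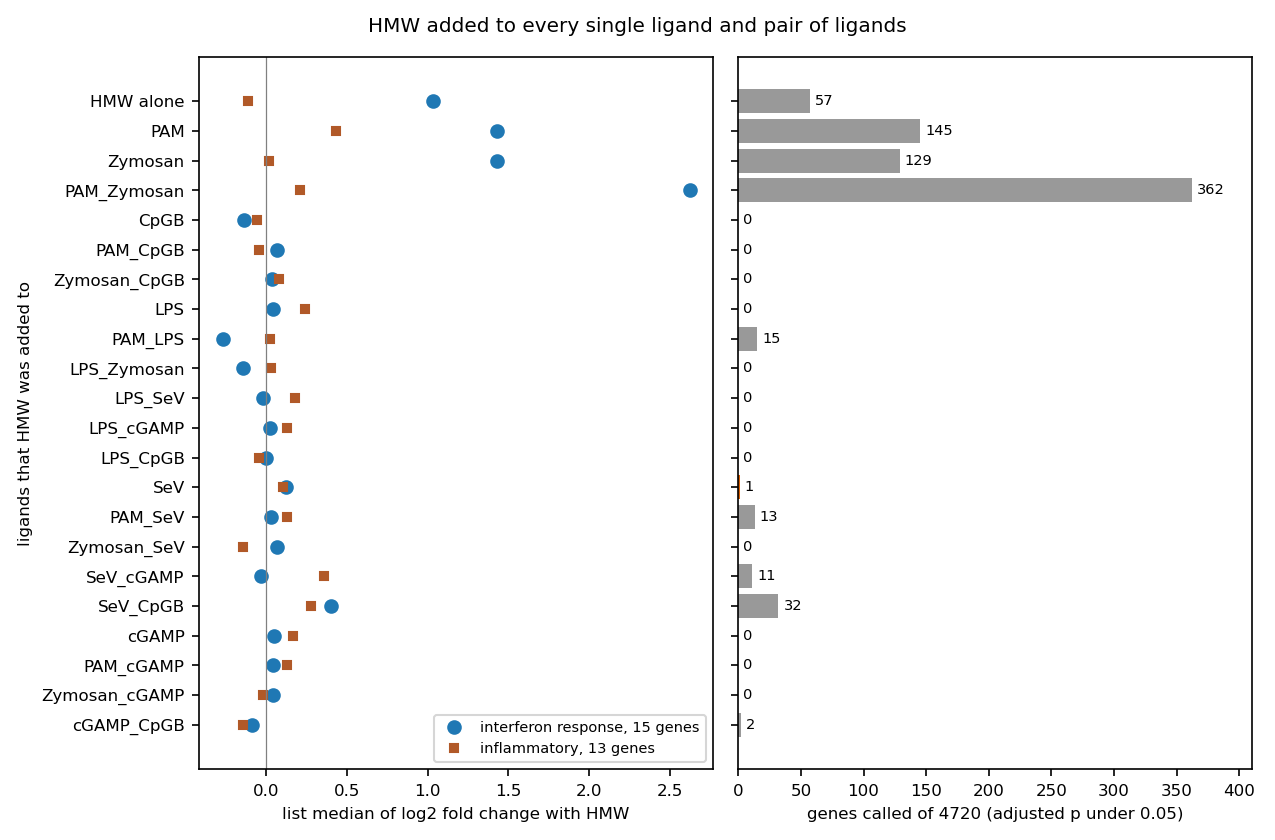
Left, median log2 fold change with HMW of the interferon-response list (circles) and the inflammatory list (squares) for HMW alone, 6 single ligands and 15 pairs (y axis). Right, number of genes called of 4720 on each, with LPS, SeV and cGAMP in orange. Only HMW alone, PAM, Zymosan and PAM with Zymosan reach an interferon median above 1, and they call 57, 145, 129 and 362 genes.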

How the data were processed

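The deposited values are counts of unique molecular identifiers per gene symbol, which the authors left without normalization, in 1 table of 23481 genes. BWA 0.7.15 and the build mm10 are named in the submitters' processing notes; the rules for counting UMIs and for reads that match several genes are not given in the sources used here, so near-identical gene copies may share counts. RNA was reverse transcribed with a template-switching oligo, and the cDNA was pooled, amplified, tagmented and sequenced, per the labels' protocols.

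From the counts, R 4.3.3 and edgeR 4.0.16 were used. A filter on low counts (filterByExpr, by group) left 4720 genes holding 95.7% of the counts, and TMM gave the scaling. The quasi-likelihood fit covered the libraries of all 64 groups, 1 term for each, with 128 residual degrees of freedom and a common biological coefficient of variation of 10.3%. F-tests were adjusted by Benjamini-Hochberg over the 4720 genes within each comparison and called at 0.05 without a fold threshold. CPM use the TMM-scaled library sizes, and SDs are over 3 libraries. Depth limits the precision of weak genes, and counting error is only part of the spread.

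Members and gene lists were chosen with earlier results of these data known. Genes were named by a rule: up to 10 called genes in each direction per comparison with at least 20 CPM, without overlap on a single background or with 1 sign on all 3, the 6 called genes of smallest p for differences, and 15 genes by name. Other genes were named after their values were seen.

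Alternatives were other scaling, no filter, DESeq2 1.42.0, a replicate block, thinning to equal totals, fewer libraries and leaving out replicates; the refits without a replicate kept the genes and dispersion trend of the full fit. The model was also run on simulated data with the same spread for all genes, unlike these data, and no result here rests on that run. Promoters are from RefSeq.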

Additional observations from a re-analysis of the deposited data

Results flagged for a closer look

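The HMW effect common to LPS, SeV and cGAMP differed from the effect of HMW alone by a test of the difference itself (edgeR's quasi-likelihood test, Benjamini-Hochberg adjusted), which called 40 genes. The named ones were Rtp4 (difference of log2 fold changes -2.46), Ifi203 (-2.65), Parp14 (-1.68), Ifi204 (-1.43), Oasl2 (-2.04) and Mx1 (-1.30), all lower on the 3 backgrounds.

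The same common effect differed from the mean effect on PAM, Zymosan and CpGB for 74 genes by the same kind of test. The named ones were Ifit1 (-1.11), Ifi47 (-1.03), Ifi204 (-0.90), Trim30a (-0.87), Mx1 (-0.81) and Isg15 (-0.99), again all lower on LPS, SeV and cGAMP. CpGB did not go with PAM and Zymosan in that mean. HMW added to CpGB called 0 genes, and its interferon-response median was -0.14, against 1.43 with PAM and 1.43 with Zymosan. Of the 39 genes lower than with HMW alone, 31 were also among the 73 lower than the mean with PAM, Zymosan and CpGB. That is 79.5% of the first set and 42.5% of the second. Both sets use the common effect and share its 18 libraries.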

How the results depend on the processing

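Scaling by relative log expression, scaling by library size alone, no filter on low counts and DESeq2 left every total of called genes within 1.5 times of its main value, but not every count by direction. Higher calls against HMW alone were 1 in the main analysis and 3 by DESeq2, and those of the comparison of both common effects 1 and, by DESeq2 or without a filter, 0. For PAM, Zymosan and CpGB the lower calls were 21 in the main analysis, 4 without a filter, 10 by DESeq2 and 33 by library size, and for the 15 pairs 59 and, without a filter, 20. Without a filter 1 of the 5 common calls was lower, and Plek was not called. With a fold threshold of 2 in either direction, 0 genes were called for SeV, 0 for the common effect, 31 for PAM, Zymosan and CpGB, 0 for the 15 pairs and 11 for the comparison of both common effects. Thinned to equal totals, 0 genes were called for SeV, 1 for the common effect, 20 for the comparison with HMW alone, 72 for PAM, Zymosan and CpGB, 68 for the 15 pairs and 31 for the comparison of both common effects; fewer counts per library limit these. Fitted on the libraries compared alone, SeV gave 6 calls (4 higher, 2 lower) and the common effect 17 (15 higher, 2 lower), all 5 main genes among them. Over the 15 pairs 234 genes were called, 100 without PAM with Zymosan and 71 over the 12 pairs with LPS, SeV or cGAMP.

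The replicate block gave 2 calls for SeV, adding Irg1, and moved no other count past 1.5 times. Same-numbered libraries deviated from their group means with correlations of -0.05 to 0.04, and 4 of 9 correlated best with their own number.

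Leaving out replicates (single libraries, or 1 number in all groups) gave 0 to 2 calls for SeV, 0 to 1 for cGAMP, 0 for LPS, 0 for the difference among backgrounds, 1 to 6 for the common effect, 10 to 66 against HMW alone, 118 to 151 for PAM, Zymosan and CpGB, 55 to 245 for the 15 pairs and 49 to 66 for the comparison of both common effects. The SeV count was 0 without replicate 3 of SeV, 0 without number 1 or 3 in all groups and 2 without replicate 1 of SeV, and the cGAMP count was 1 without replicate 3 of cGAMP. With a number dropped in all groups, the count over the 15 pairs was 108 without replicate 1 and 55 without replicate 3, and that against HMW alone was 10 without replicate 2. The common effect kept 1 to 2 calls when a replicate number was dropped in all groups. Among called genes, 33 of 474 gene values lost the call and 0 reversed. These values include the named genes of both difference tests, which lost 0 calls. The common call was lost in 9 of 28 alternatives for Cd69, 5 for Plek, 4 for Tnfaip3 and 3 for Irg1. Clec4e kept its common call in all 28 alternatives and lost its call with SeV in 4 of 16. The interferon-response median of the common effect ranged from 0.01 to 0.10. The cause of these changes was not tested.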

Other observations

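Some genes outside the fixed lists rose with HMW over the 15 pairs of ligands, in libraries that the LPS, SeV and cGAMP comparisons do not use. They were picked after their values were seen, as genes of small p. Prdx5, a peroxiredoxin that removes peroxides, had a mean log2 fold change of 0.33 over the 15 pairs (SE 0.04, edgeR adjusted p = 4.05e-13) and of 0.23, 0.25 and 0.17 on LPS, SeV and cGAMP, where its common effect was not called (adjusted p = 0.582). Mmp12, a macrophage elastase, had 0.25 over the pairs and 0.20, 0.09 and 0.01 on LPS, SeV and cGAMP, again not called. Over the 15 pairs 234 genes were called (4.96%), 175 higher and 59 lower, and Prdx5 and Mmp12 were among the higher ones.

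Clec4e had a log2 fold change above 0 on 15 of the 15 pairs, with a lowest value of 0.05 and a highest of 0.60 with SeV and cGAMP together. Tnfaip3, Irg1 and Plek were above 0 on 14 of the 15 and Cd69 on 13, where 46.6% to 53.9% of all genes were above 0 on a pair. On single pairs few of these passed the test: Clec4e was called on 1 of the 15, Tnfaip3 on 2, Irg1 on 2, Cd69 on 1 and Plek on 0. Each had an unadjusted p under 0.05 with a rise on 3 to 5 (edgeR). Of all genes, 0% to 7.67% were called on a pair, and 2.06% to 11.5% had an unadjusted p under 0.05 with a rise. Both shares were highest with PAM and Zymosan together, where Tnfaip3, Irg1 and Cd69 were called.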
